A study of Mus musculus with 10 samples.

Results

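The 5 genes that encode the NF-κB subunits (Nfkb1, Nfkb2, Rel, Rela and Relb) were examined in WEHI 164 tumors by RNA sequencing. With them were 5 genes that NF-κB itself switches on, grouped here as inhibitors (Nfkbia, Nfkbie, Nfkbiz, Tnfaip3 and Bcl3). All 10 were picked by gene symbol. Each matched a single row of a table that held 35958 features once rows of the same name were summed. WEHI 164 is a mouse fibrosarcoma cell line, here of wild-type genotype, grown under the skin of female BALB/c mice. Each tumor was partly resected, the removed piece was kept for RNA, and a hydrogel releasing poly(I:C), a synthetic double-stranded RNA, was then laid on what remained of the tumor. All 10 pieces were therefore untreated when taken, and the groups are set by what happened afterwards: the 5 responders (RS, tumors 5, 9, 10, 11 and 12) regressed completely, and in the 5 non-responders (NR, tumors 1, 2, 3, 6 and 7) growth was not delayed. The labels gave no age, batch or culture of origin, and all the tumors grew from the same cell line. The responder libraries totaled between 16002811 and 31160621 estimated counts (median 25627550), the non-responder libraries between 19863733 and 28275989 (median 22757695), and the totals did not separate the groups (exact two-sided permutation test, p = 0.968). As for the label of fibrosarcoma, all 9 mesenchymal genes listed were measured above the filter, led by Vim at a mean of 4764 CPM (counts scaled to the same total in each library). Of the 5 keratinocyte genes listed, Krt1 was at 0 in every tumor, Krt5 and Krt14 had at most 7 counts in any tumor, and Krt10 and Trp63 passed the filter, with Krt10 at a mean of 3.09 CPM.

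NF-κB proteins work as dimers that wait in the cytoplasm until a signal releases them. In the canonical route, receptors for TNF, IL-1 or microbial products activate the IκB kinase complex, the inhibitor IκBα is destroyed, and dimers holding RelA or c-Rel enter the nucleus. In the non-canonical route, the kinase NIK drives processing of the Nfkb2 product, and dimers holding RelB are released. Many inhibitors of the pathway are themselves targets, so that their transcripts are widely read as a trace of recent NF-κB activity, in tumor cells as well as in the macrophages and lymphocytes of a tumor.

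RefSeq promoter windows (build GRCm38.p6), each of 300 bases with 250 before the start site, were matched by symbol to 7 of the 10 genes. They were searched on both strands for the κB consensus, the letters that NF-κB dimers are known to bind, since such sites are how the feedback genes are switched on. It was found in 6 of the 7 genes (85.7%), in at least 1 of the windows listed for each, against 9.55% of the 27025 genes with a window. By window, it was found in 8 of the 10 listed for these genes (80%), against 8.46% of 32851 windows. The inhibitors were picked as genes that NF-κB switches on, so an excess was built into the choice, and no conclusion is drawn from it. A match is a description of the letters and not a measured binding site. The 130 bases before the start are shown 5′ to 3′ for 5 genes whose matches lie there, with each match in capitals and overlapping matches joined.
Nfkb2, chr19:46304607-46304736, plus strand: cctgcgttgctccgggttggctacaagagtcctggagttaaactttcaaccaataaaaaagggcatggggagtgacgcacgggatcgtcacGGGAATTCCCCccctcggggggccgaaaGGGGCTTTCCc
Rel, chr11:23770970-23771099, minus strand: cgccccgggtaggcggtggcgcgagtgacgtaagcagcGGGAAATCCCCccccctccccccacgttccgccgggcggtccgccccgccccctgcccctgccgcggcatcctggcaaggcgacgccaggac
Nfkbia, chr12:55492648-55492777, minus strand: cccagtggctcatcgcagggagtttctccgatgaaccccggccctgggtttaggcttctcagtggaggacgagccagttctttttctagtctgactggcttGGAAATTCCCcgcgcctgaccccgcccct
Nfkbie, chr17:45555570-45555699, plus strand: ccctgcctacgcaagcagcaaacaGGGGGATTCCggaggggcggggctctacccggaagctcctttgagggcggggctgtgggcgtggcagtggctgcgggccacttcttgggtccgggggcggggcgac
Tnfaip3, chr10:19015411-19015540, minus strand: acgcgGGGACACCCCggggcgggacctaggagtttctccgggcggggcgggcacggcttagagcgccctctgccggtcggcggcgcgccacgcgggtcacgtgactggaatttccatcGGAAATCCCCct
This window of Nfkb2 held 2 places, whose first bases lay 39 and 11 bases before the start, and that of Tnfaip3 held 2 places, at 125 and 12 bases before it. Rel had a match 92 bases before the start, Nfkbia 29 bases before it and Nfkbie 106 bases before it. Bcl3 had its match just past the start, with its first base 2 bases beyond it, and the Rela window had none. The genes Nfkb1, Relb and Nfkbiz were not searched.

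The members lie on 8 chromosomes of build GRCm38 (GENCODE vM21). Relb (chr7:19606217-19629438, minus strand) and Bcl3 (chr7:19808462-19822770, minus strand) lie 179024 bases apart. Rela (chr19:5637483-5648130, plus strand) and Nfkb2 (chr19:46304320-46312385, plus strand) share a chromosome but are far apart. The others are Nfkb1 (chr3:135584655-135691547, minus strand), Rel (chr11:23736847-23770970, minus strand), Nfkbia (chr12:55489410-55492647, minus strand), Nfkbie (chr17:45555703-45563169, plus strand), Nfkbiz (chr16:55811375-55838899, minus strand) and Tnfaip3 (chr10:19000910-19015657, minus strand). Values are sums over the transcripts of a gene, so coding and untranslated exons are not told apart. Nfkb1 overlaps Gm43430 on the same strand, Nfkb2 overlaps Psd and AC114539.1 on the opposite strand, and Bcl3 overlaps the antisense genes Gm16174 and Gm16175. The use of strand in counting is not given in the sources used here. How far reads of such partners entered the values was not measured.

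To compare genes with each other, levels were expressed as CPM per kilobase of the longest protein-coding transcript and averaged over all 10 tumors. Nfkbia, which encodes IκBα, the inhibitor that resets the canonical route, stood at 65.4 ± 9.89 (SD, n = 10), and Nfkb2, precursor of the p52 subunit, at 58.7 ± 2.54. These neighbors were not separated: Nfkbia was above Nfkb2 in 6 of the 10 tumors. Nfkb1, precursor of the p50 subunit, followed at 34.2 ± 4.47, below Nfkb2 in all 10 tumors. Nfkbie, encoding IκBε, at 30.5 ± 3.54 and Rela, encoding the transactivating p65 subunit, at 30.2 ± 1.87 were indistinguishable, Nfkbie being the higher in 6 of 10 tumors. Relb, the non-canonical partner of p52, stood at 20.3 ± 1.56 and below Rela in all 10 tumors. Bcl3, a nuclear IκB protein that binds p50 and p52 dimers and can raise as well as restrain transcription, followed at 14.3 ± 2.95. Nfkbiz, which encodes the nuclear IκBζ and like Bcl3 is not only an inhibitor, was at 8.50 ± 1.37. Tnfaip3, which encodes the ubiquitin-editing enzyme A20, was at 7.45 ± 1.42, below Nfkbiz in 7 of 10 tumors. Rel, encoding the c-Rel subunit best known from lymphocytes and myeloid cells, was lowest at 3.26 ± 0.342, below Tnfaip3 in all 10 tumors. Counted over the union of all exons, Nfkb1 dropped to 11.7 and from the third to the fifth place, because its annotated exons span 12061 bases against 4117 for its longest coding transcript. By the same count Relb was at 11.5 and Tnfaip3 at 4.56, each in the place it had before.

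Responders and non-responders were then compared. No member passed the threshold of an adjusted p under 0.05 in edgeR's quasi-likelihood test, as was true of all 15767 features tested (0% called; smallest adjusted p = 0.58). All 10 members passed the filter on low counts. The means of all 5 inhibitors were higher in responders, with a median log2 fold change of 0.23. Of the subunits, Rel and Relb had the higher mean in responders and Rela the lower, while Nfkb1 and Nfkb2 had log2 fold changes of 0.0004 and -0.0035, and the median was 0.0004, against a median of -0.0036 over all features, of which 48.6% were above 0. Of the 10 members, 3 had an unadjusted edgeR p under 0.05 with the higher mean in responders (Relb, Nfkbia and Nfkbie) and 0 with the lower, against 4.2% and 4% of all features. In none of the 10 did the groups separate completely, which occurred in 0.336% of features with every responder above every non-responder and in 0.59% with every responder below. The pieces were bulk tissue, in which fewer cells of a type and less RNA per cell cannot be told apart.

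**Figure D1:**
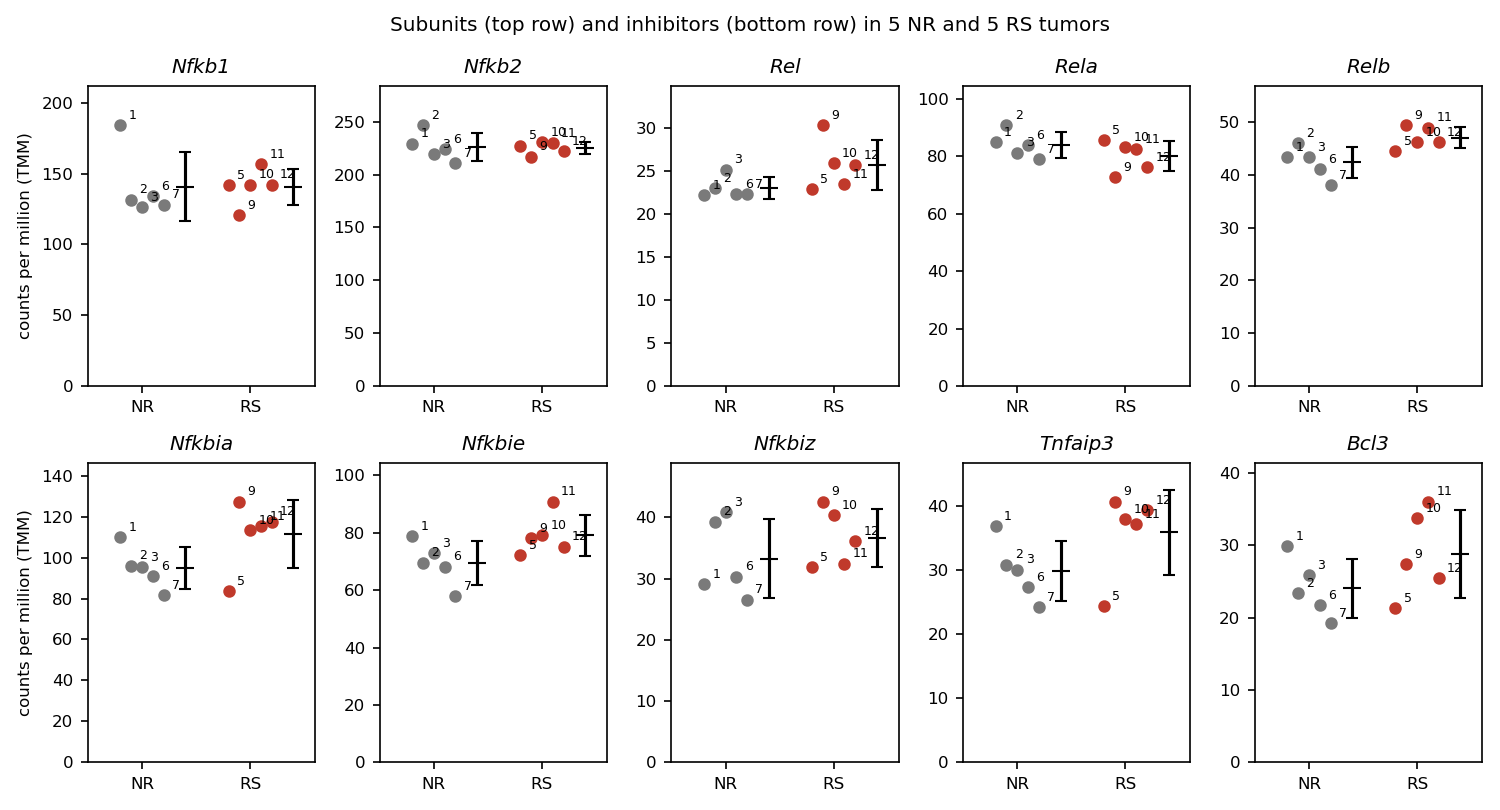
TMM-normalized CPM of each gene (y axis, from 0) in 5 non-responders (gray) and 5 responders (red), labeled by tumor number, with the mean and SD of each group in black. Nfkb2 is nearly level between the groups, at 226 and 225 CPM, whereas for Nfkbia and Tnfaip3 responder 5 lies low among the non-responders and the other 4 responders lie above all of them.

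Among the subunits, the precursors Nfkb1 and Nfkb2 had nearly the same mean in both groups. For Nfkb1 the CPM values were 184, 132, 126, 134 and 128 in non-responders 1, 2, 3, 6 and 7 and 142, 121, 142, 157 and 142 in responders 5, 9, 10, 11 and 12. Non-responder 1 was the highest of all and responder 9 the lowest, so that the responders fell inside the range of the non-responders apart from responder 9. The log2 fold change was 0.0004 with a standard error (SE) of 0.10 (edgeR, adjusted p = 0.999; exact permutation p = 0.937). For Nfkb2 the values were 229, 247, 219, 224 and 211 CPM in non-responders and 227, 217, 231, 229.9 and 222 CPM in responders. None of the 5 responders was outside the non-responder range, and the log2 fold change was -0.0035 ± 0.047 (SE; edgeR, adjusted p = 0.994; exact permutation p = 0.968). Nfkb2 was also the least variable member over the 10 tumors, with a coefficient of variation of 4.34%, against 20.7% for Bcl3, the most variable.

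The 3 subunits with a transactivation domain had means on different sides. Rela was measured at 84.9, 90.9, 81.3, 84.0 and 79.1 CPM in non-responders and at 85.6, 72.9, 83.3, 82.5 and 76.3 CPM in responders. The groups overlapped, with responders 9 and 12 below every non-responder, and the log2 fold change was -0.068 ± 0.054 (SE; edgeR, adjusted p = 0.756; exact permutation p = 0.246). Rel was measured at 22.2, 23.0, 25.2, 22.3 and 22.3 CPM in non-responders and at 22.9, 30.3, 26.0, 23.5 and 25.7 CPM in responders. Responders 9, 10 and 12 were above every non-responder, and all responders but number 5 were above 4 of the 5 non-responders. The log2 fold change of Rel was 0.16 ± 0.076 (SE; edgeR, adjusted p = 0.619; exact permutation p = 0.0635). Relb was measured at 43.4, 46.1, 43.4, 41.2 and 38.2 CPM in non-responders and at 44.6, 49.5, 46.3, 49.0 and 46.2 CPM in responders. Only responder 5 and non-responder 2 overlapped: 4 responders were above every non-responder, and 4 non-responders were below every responder. The means were 47.1 ± 2.05 (SD, n = 5) and 42.4 ± 2.95 CPM, a log2 fold change of 0.15 ± 0.057 (SE; edgeR, adjusted p = 0.580). An exact two-sided permutation test of Relb alone gave p = 0.0159, where 5 tumors against 5 allow no p below 0.00794.

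The cytoplasmic inhibitors and A20 came next. Nfkbia was measured at 110.1, 96.1, 95.4, 91.0 and 81.6 CPM in non-responders and at 83.8, 127, 114, 115 and 118 CPM in responders. Responder 5 sat near the bottom of the non-responder range and the other 4 responders were above all non-responders. The means were 112 ± 16.4 and 94.9 ± 10.3 CPM (SD, n = 5 each), 1.17-fold apart (log2 fold change 0.23 ± 0.10, SE; edgeR, adjusted p = 0.595; exact permutation p = 0.111). Tnfaip3 had the same arrangement, with 36.9, 30.9, 30.1, 27.4 and 24.3 CPM in non-responders and 24.4, 40.7, 38.04, 37.2 and 39.4 CPM in responders. Its log2 fold change was 0.26 ± 0.14 (SE; edgeR, adjusted p = 0.634; exact permutation p = 0.151). Nfkbie was measured at 78.9, 69.5, 73.0, 68.2 and 57.9 CPM in non-responders and at 72.3, 78.0, 79.3, 90.8 and 75.1 CPM in responders. The groups overlapped between 72.3 and 78.9 CPM, and the log2 fold change was 0.19 ± 0.080 (SE; edgeR, adjusted p = 0.591; exact permutation p = 0.0714).

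The nuclear IκB genes overlapped more widely. Nfkbiz was measured at 29.1, 39.3, 40.9, 30.3 and 26.6 CPM in non-responders and at 31.9, 42.6, 40.4, 32.5 and 36.1 CPM in responders. Non-responders 2 and 3 lay among the highest responders, with responder 9 alone above both and responder 10 between them, and the log2 fold change was 0.14 ± 0.12 (SE; edgeR, adjusted p = 0.791; exact permutation p = 0.318). Bcl3 was measured at 29.9, 23.4, 25.8, 21.8 and 19.2 CPM in non-responders and at 21.3, 27.3, 33.7, 36.0 and 25.5 CPM in responders. Responders 10 and 11 were above every non-responder and responder 5 was below 4 of the 5. The log2 fold change of Bcl3 was 0.26 ± 0.14 (SE; edgeR, adjusted p = 0.658; exact permutation p = 0.198).

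The number of members with an unadjusted edgeR p under 0.05 depended on single tumors. Without responder 5, 6 of the 10 members had such a p with the higher mean in responders, against 3 with all tumors. The share of all features with such a p moved the same way, from 4.2% to 6.84%. The log2 fold changes of Nfkbia, Tnfaip3 and Bcl3 were then 0.32, 0.38 and 0.36, and the smallest adjusted p of any member was 0.0959. Without non-responder 7, the tumor with the lowest Nfkb2, Relb, Nfkbia, Nfkbie, Nfkbiz, Tnfaip3 and Bcl3, the number was 0, beside 2.71% of all features, and without non-responder 1 it was 5, beside 5.73%. It was 1 without non-responder 2, non-responder 6 or responder 10, beside 3.51%, 3.85% and 3.49% of all features, and 2 without responder 9, 11 or 12, beside 3.17%, 2.88% and 3.64%. Single tumors also moved some fold changes by over 1.5 times. That of Nfkbiz was 0.069 without non-responder 7 and 0.22 without non-responder 3, and that of Rel was 0.097 without responder 9. That of Rela was -0.031 without responder 9, and that of Bcl3 was 0.17 without responder 11.

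Ratios of 2 genes within a tumor do not depend on library size, though they can depend on its mix of cells, and 4 were compared. The count of Relb relative to Rela, the non-canonical against the canonical subunit, had log2 values of -0.97, -0.98, -0.91, -1.03 and -1.05 in non-responders and of -0.94, -0.56, -0.85, -0.75 and -0.72 in responders. Again responder 5 alone lay among the non-responders. The mean ratio was 0.589 in responders and 0.505 in non-responders on the linear scale, 0.22 apart in log2 (p = 0.0159 by an exact two-sided permutation test, and 0.0635 adjusted over the 4 ratios). Nfkbia relative to Rela differed by 0.30 (exact permutation p = 0.111, adjusted p = 0.180) and Tnfaip3 relative to Rela by 0.33 (exact permutation p = 0.135, adjusted p = 0.180), with 4 responders above and responder 5 below every non-responder. Nfkb2 relative to Nfkb1 differed by -0.011 (exact permutation p = 0.937, adjusted p = 0.937), with log2 means of 0.68 ± 0.11 and 0.70 ± 0.22 (SD, n = 5 each). None of the 4 passed after adjustment with all tumors. Without responder 5 the Relb, Nfkbia and Tnfaip3 ratios to Rela did, at differences of 0.27, 0.42 and 0.48. In these ratios responder 5 was the only responder not above every non-responder. Leaving it out separated the groups completely, which fixed the outcome of the test, so no conclusion is drawn from it.

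**Figure D2:**
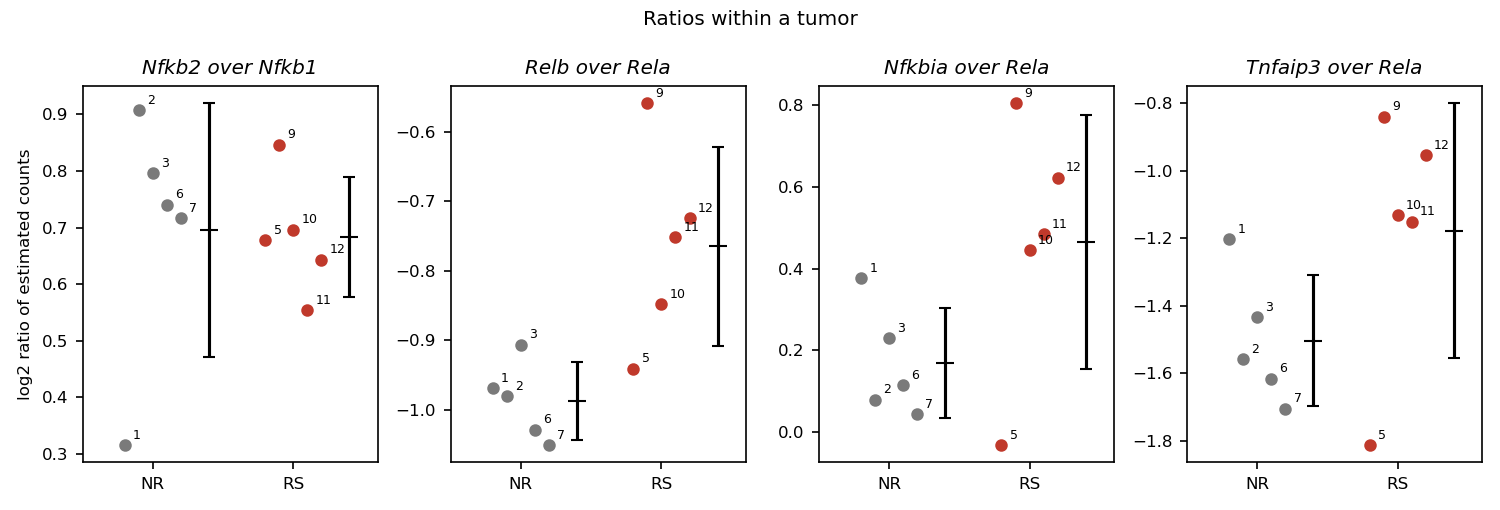
Log2 ratio of estimated counts of 2 genes in the same tumor (y axis) for 5 non-responders (gray) and 5 responders (red), labeled by tumor number, with the mean and SD of each group in black. For Relb over Rela, 4 responders lie above every non-responder, and the group means are -0.76 and -0.99.

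The members were also compared with each other over the 10 tumors. Of all 45 member pairs, 35 had a Pearson r above 0 (median 0.37), and 11 passed an adjusted p under 0.05 by Pearson r, 6 by Spearman rho and 5 by both (permutation tests of log2(CPM + 1) with 100000 resamples, adjusted over the 45 pairs). Among the 10 pairs of inhibitors all r were above 0, with a median of 0.76, and 6 passed by Pearson r but only 2 by both measures. The 4 pairs of Nfkbiz with the other inhibitors did not pass, at r of 0.37 to 0.53 and 0.098 to 0.22 without the 2 tumors farthest from the median of the first gene. Among the 10 pairs of subunits the median was 0.21 and the range -0.72 to 0.78, a difference from the inhibitors that was not tested. When 1 tumor was left out, from 2 to 8 of the 45 pairs passed by Pearson r, with 2 without non-responder 3, non-responder 6, non-responder 7 or responder 10. The pair with the highest r was Nfkbia and Tnfaip3, with r = 0.989 (adjusted permutation p = 0.00045), rho = 0.988 (adjusted p = 0.0009) and r = 0.992 without the 2 tumors farthest from the median of Nfkbia. Nfkbie and Bcl3 followed, with r = 0.911 (adjusted permutation p = 0.00248), rho = 0.952 (adjusted p = 0.0036) and r = 0.877 without the 2 farthest tumors. Both pairs passed again on deviations from the group means, at r = 0.989 (adjusted p = 0.00135) and r = 0.893 (adjusted p = 0.0133), as did Nfkb2 and Rela at r = 0.848 (adjusted p = 0.0191). The Nfkb2 and Rela pair had r = 0.781 over the values themselves (adjusted permutation p = 0.045) and rho = 0.746 (adjusted p = 0.0738), and r = 0.751 without the 2 farthest tumors.

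Subunits and inhibitors were linked in some pairs and not in others. Rel went with Nfkbiz at r = 0.781 (adjusted permutation p = 0.0366), rho = 0.903 (adjusted p = 0.0125) and r = 0.727 without the 2 farthest tumors. Relb went with Nfkbia at r = 0.787 (adjusted permutation p = 0.0366), rho = 0.842 (adjusted p = 0.0355) and r = 0.638 without the 2 farthest, and with Tnfaip3 at r = 0.749 (adjusted permutation p = 0.045), rho = 0.830 (adjusted p = 0.0355) and r = 0.534 without them. None of these 3 pairs passed on deviations from the group means, where the adjusted p were 0.0699, 0.140 and 0.140. Relb and Nfkbie had the highest r of a subunit and an inhibitor, at 0.829 (adjusted permutation p = 0.0366), and 0.525 without the 2 farthest tumors. That pair did not pass by rho = 0.709 (adjusted permutation p = 0.0830) or on deviations from the group means (adjusted permutation p = 0.118). No pair of Rela with an inhibitor passed. Their r ran from -0.47 with Nfkbia to -0.05 with Nfkbie, and those with Nfkbie and Bcl3 were above 0, at 0.258 and 0.159, on deviations from the group means. Its r with Rel was -0.717 (adjusted permutation p = 0.0731; rho = -0.527, adjusted p = 0.266) and -0.524 without the 2 farthest tumors. Relb and Bcl3, both on chromosome 7, had r = 0.690 (adjusted permutation p = 0.0841; rho = 0.649, adjusted p = 0.138) and 0.386 without the 2 farthest tumors.

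**Figure D3:**
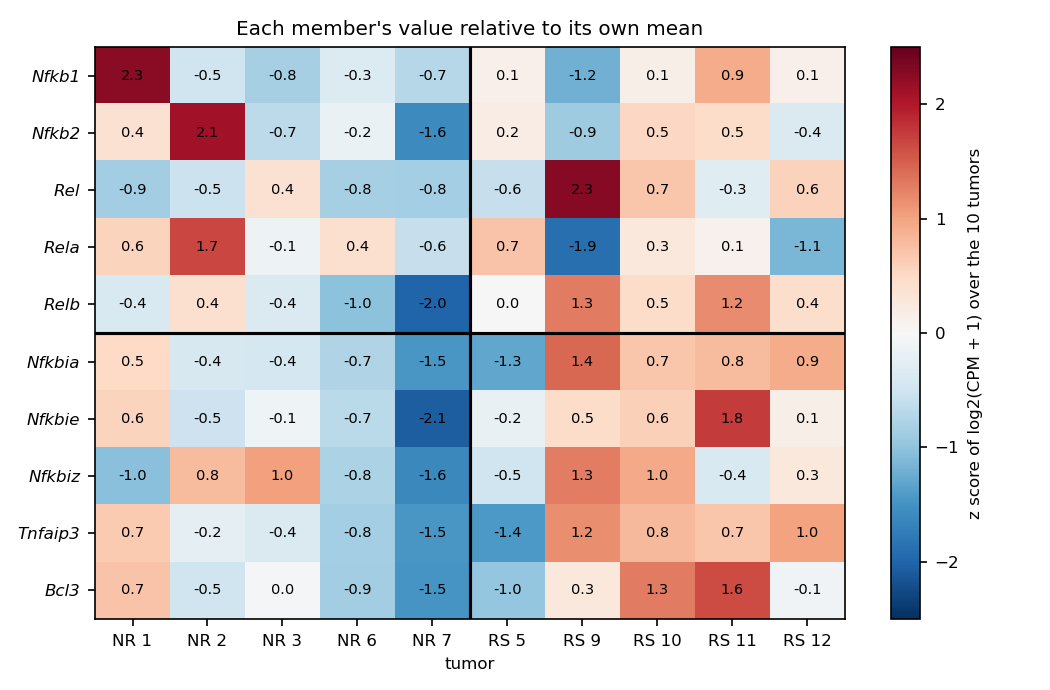
Each gene's log2(CPM + 1) as a z score over the 10 tumors (color and printed number), with tumors on the x axis, non-responders left of the line, subunits above and inhibitors below. The column of non-responder 7 is below the mean for all 10 genes, from -0.57 for Rela to -2.06 for Nfkbie, and Nfkbia and Tnfaip3 have nearly the same row.

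Cell type markers were read beside these values, since leukocytes express NF-κB genes as tumor cells do. None of the 12 marker scores, each the mean log2(CPM + 1) of a list, passed after adjustment between the groups (smallest adjusted exact permutation p = 0.190). The leukocyte score was 6.39 ± 0.178 in responders and 6.17 ± 0.156 in non-responders (SD, 5 tumors each; exact permutation p = 0.0952). All 6 of its markers passed the filter, led by Arhgdib at a mean of 193 CPM, and their summed CPM was 653, 541, 615, 622 and 523 in non-responders and 580, 652, 695, 758 and 614 in responders. The natural killer cell score was 3.13 ± 0.676 against 2.31 ± 0.416 (exact permutation p = 0.0635), with all 7 markers past the filter, led by Gzma at 36.1 CPM. Responder 5 had a summed natural killer marker level of 28.5 CPM, against 113 to 212 in the other responders and 24.6 to 67.9 in non-responders. The endothelial score was 4.21 ± 0.135 against 4.39 ± 0.0921 (exact permutation p = 0.0397, adjusted p = 0.190). The keratinocyte score, which rests on Krt10 and Trp63, was 2.04 ± 0.221 against 1.76 ± 0.157 (exact permutation p = 0.0476, adjusted p = 0.190), with responder 5 again among the non-responders and the other 4 responders above them all. Of its genes, Krt10 was level (3.10 against 3.09 CPM), so the difference was that of Trp63 alone, at 3.23 ± 0.902 against 1.86 ± 0.531 CPM (SD, n = 5 each). The summed CPM of its markers lay between 4.62 and 8.21 in responders and between 4.11 and 5.91 in non-responders. The mesenchymal score, which the tumor cells share with other stromal cells, was 8.97 ± 0.0278 against 9.05 ± 0.0765 (exact permutation p = 0.0556, adjusted p = 0.190), with 2 responders below every non-responder. The neutrophil score was 2.15 ± 0.347 against 1.73 ± 0.350 (exact permutation p = 0.0952, adjusted p = 0.190), with 5 of 6 markers past the filter. The other 6 scores had an exact permutation p of 0.175 to 0.754.

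Bcl3 and Nfkbie followed the leukocyte markers closely. Of 120 pairs of a member and a marker list, 5 passed by both Pearson r and Spearman rho (permutation tests adjusted over the 120), and the same number passed on deviations from the group means. Bcl3 went with the macrophage score at r = 0.943 (adjusted permutation p = 0.0036) and rho = 0.952 (adjusted p = 0.006), and with the leukocyte score at r = 0.942 (adjusted p = 0.0036) and rho = 0.952. Nfkbie went with the leukocyte score at r = 0.917 (adjusted permutation p = 0.0036) and rho = 0.964, and with the macrophage score at r = 0.898 (adjusted p = 0.0036) and rho = 0.939. Without the 2 tumors of farthest score, these r were 0.903, 0.873, 0.889 and 0.822. The macrophage list had all 10 markers past the filter, led by Lyz2 at 984 CPM, and its summed CPM lay between 2137 and 2867 in non-responders and between 2324 and 2913 in responders. Rel went against the skeletal muscle score at r = -0.901 (adjusted permutation p = 0.00744), rho = -0.879 (adjusted p = 0.0352) and r = -0.834 without the 2 farthest tumors. Nfkbiz also went against it, passing by rho = -0.891 (adjusted permutation p = 0.0290) but not by r = -0.853 (adjusted permutation p = 0.0550). Its r was -0.914 without the 2 farthest tumors. The 6 muscle markers were led by Acta1 at 57.4 CPM, and their summed CPM lay between 64.6 and 189 in responders and between 93.7 and 182 in non-responders. Nfkbia had r = 0.772 with the leukocyte score (adjusted permutation p = 0.0758; rho = 0.745) and 0.827 with the natural killer cell score (adjusted p = 0.0550; rho = 0.758), with r = 0.712 and 0.918 without the 2 farthest tumors. Its r was as high with markers of other kinds, at 0.837 with the T cell score (adjusted permutation p = 0.0550; rho = 0.758) and 0.819 with the keratinocyte score (adjusted permutation p = 0.0550; rho = 0.818), and 0.841 and 0.908 without the 2 farthest tumors. Rela had r = -0.224 with the leukocyte score (adjusted permutation p = 0.752; rho = -0.212, and r = -0.512 without the 2 farthest tumors). With the mesenchymal score its r was 0.660 (adjusted permutation p = 0.166, rho = 0.782), and 0.801 without the 2 farthest tumors. Relb had r = 0.654 with the leukocyte score (adjusted permutation p = 0.162, rho = 0.624), and 0.274 without the 2 farthest tumors. None of these pairs of Rela and Relb passed.

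With the leukocyte score as a covariate in the edgeR fit, 0 of the 10 members had an unadjusted p under 0.05, and their smallest adjusted p was 0.999. Over all features, the share with such a p was 1.47% higher and 1.76% lower in responders, against 4.2% and 4% without the covariate, so the count of the members is near that of the table. The log2 fold changes of Relb, Nfkbia, Nfkbie and Tnfaip3 were then 0.11, 0.070, 0.029 and 0.049, and that of Bcl3 was -0.075. Those of Rel, Nfkbiz and Rela hardly moved, at 0.14, 0.12 and -0.068, against 0.16, 0.14 and -0.068 without the covariate. The part that cell composition plays in the values was not tested.

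**Figure D4:**
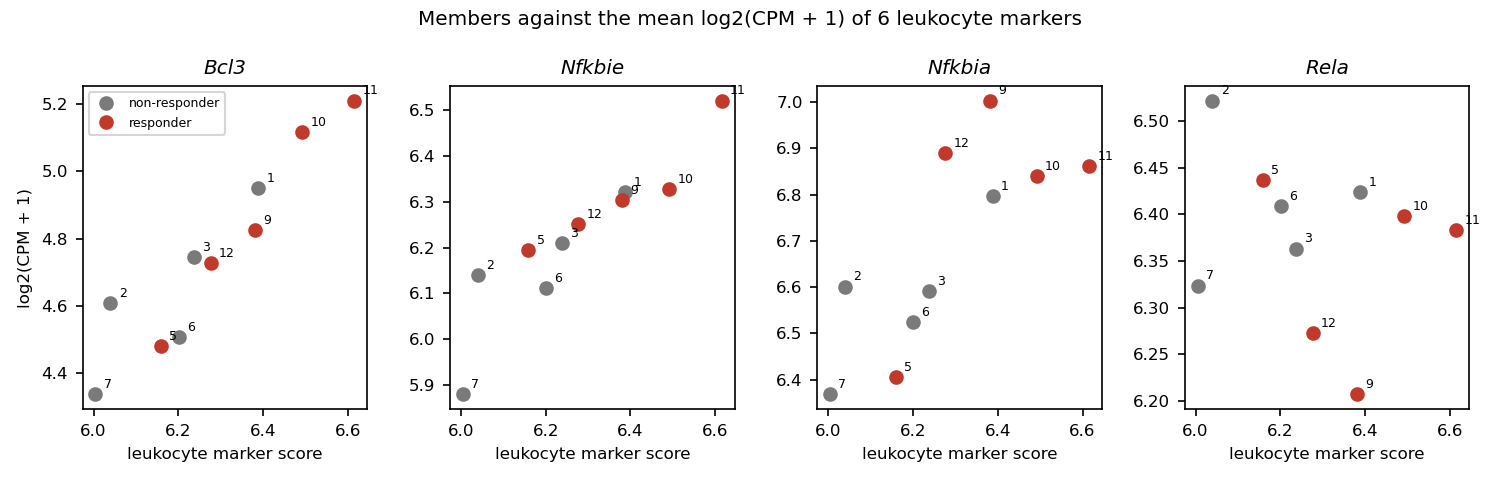
Log2(CPM + 1) of Bcl3, Nfkbie, Nfkbia and Rela (y axis) against the mean log2(CPM + 1) of 6 leukocyte markers (x axis) in 5 non-responders (gray) and 5 responders (red), labeled by tumor number. Bcl3 and Nfkbie lie near a line along the score in both groups (r = 0.942 and 0.917), Nfkbia is more scattered (r = 0.772), and Rela has an r of -0.224.

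The genes whose pattern over the 10 tumors was most like that of each member were named by the highest Pearson r among 10964 named genes with a mean of at least 5 CPM, as a description. Nfkbia and Tnfaip3 shared their nearest gene, Id2 (r = 0.966 and 0.955), followed by Insl3 for Nfkbia (r = 0.947) and Dpep2 for Tnfaip3 (r = 0.954). Nfkbie was nearest to Psap (r = 0.968) and Aifm2 (r = 0.966), and Bcl3 to Arhgap9 (r = 0.975) and Csf2rb (r = 0.971). Nfkbiz was nearest to Prpf40b (r = 0.983) and Dtx3 (r = 0.941). Among the subunits, Relb was nearest to Hook2 (r = 0.970) and Slc25a30 (r = 0.940), and Rela to Rbm22 (r = 0.966) and Zmiz2 (r = 0.965). Rel was nearest to 9430015G10Rik (r = 0.959) and Tmx4 (r = 0.933). The nearest genes of the precursors were less close, with Ezr (r = 0.904) and Mmp19 (r = 0.899) for Nfkb1 and Vat1 (r = 0.891) and Chrac1 (r = 0.882) for Nfkb2. The number of genes with an r above 0.8 ran from 39 for Nfkb2 and 41 for Nfkb1 to 355 for Bcl3.

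The other genes of the pathway were read from 4 lists, and 0 genes passed the adjusted threshold in any of them. Of 28 kinases and adaptors, all tested, 19 (67.9%) had a log2 fold change above 0 (median 0.055), against 48.6% of all features. An unadjusted edgeR p under 0.05 was reached by 5 higher and 1 lower in responders, beside 4.2% and 4% of all features. The median of the list was 0.018 with the leukocyte score as a covariate. The kinase Ikbkb, the catalytic subunit of the canonical route, was the named gene whose groups did not overlap, with 68.6, 64.9, 69.7, 68.7 and 65.5 CPM in non-responders and 72.1, 74.7, 72.1, 75.0 and 72.5 CPM in responders. Every responder was above every non-responder, though the log2 fold change was only 0.12 ± 0.038 (SE; edgeR, adjusted p = 0.580). That separation occurred in 1 of the 28 genes listed, beside 0.336% of all features. Ikbkg, the regulatory subunit NEMO, had a log2 fold change of 0.19 ± 0.067 (SE; edgeR, adjusted p = 0.580) and Chuk, the other catalytic subunit, 1 of 0.049 ± 0.041. The non-canonical kinase gene Map3k14, which encodes NIK, and its restraint Traf3 were at -0.033 ± 0.063 and -0.032 ± 0.052. Leaving out 1 tumor turned the direction of both, Map3k14 to 0.0226 without responder 9 and Traf3 to 0.00361 without non-responder 1.

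Of 17 further inhibitors, all tested, 10 (58.8%) had a log2 fold change above 0 (median 0.033), beside the 48.6% of all features. An unadjusted edgeR p under 0.05 was reached by 1, Irak3, named after its values were seen and higher in responders, which is near the 4.2% of all features. Among those named, the IκB genes Nfkbib and Nfkbid had log2 fold changes of 0.025 ± 0.055 and 0.22 ± 0.27 (SE). Tnip1, an A20 partner, was at 0.076 ± 0.081, the deubiquitinase gene Cyld at -0.032 ± 0.053 and Zc3h12a, which encodes the ribonuclease Regnase-1, at -0.069 ± 0.096. All 5 moved by over 1.5 times when 1 tumor was left out, Tnip1 to 0.0127 without non-responder 7 and Zc3h12a to -0.00909 without non-responder 2, for example. The median of these inhibitors thus lay nearer to that of all features than the median of 0.23 of the 5 member inhibitors did, a difference that was not tested.

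Of 20 ligands and receptors tested, out of 21 listed, 15 (75%) had a log2 fold change above 0 (median 0.17), beside 48.6% of all features, with 4 at an unadjusted edgeR p under 0.05 higher in responders and 0 lower, beside 4.2% and 4%. Il1b, the ligand of the IL-1 receptor, was measured at 24.0, 43.4, 34.7, 23.1 and 15.3 CPM in non-responders and at 13.7, 69.6, 63.2, 56.8 and 35.2 CPM in responders. Responder 5 was the lowest of all 10 tumors and responders 9, 10 and 11 were the highest (log2 fold change 0.75 ± 0.37, SE; edgeR, adjusted p = 0.619). Tnf was at 0.26 ± 0.15 and its receptors Tnfrsf1a and Tnfrsf1b at 0.10 ± 0.062 and 0.18 ± 0.072 (edgeR, adjusted p = 0.591 for the latter). Of the receptors that feed the non-canonical route, Ltbr was at -0.043 ± 0.059 and Cd40 at 0.17 ± 0.16. Leaving out 1 tumor moved Tnf to 0.13 without responder 11, Tnfrsf1a to 0.0606 without non-responder 7, Ltbr to -0.00726 without responder 9 and Cd40 to 0.0694 without non-responder 2. In 1 gene of the list, Tlr2, named after its values were seen, every responder was above every non-responder (32.6 ± 2.10 against 27.4 ± 2.56 CPM, SD, n = 5 each; edgeR, log2 fold change 0.25 ± 0.070, SE, adjusted p = 0.580). Such a separation occurred in 0.336% of all features.

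Of 30 target genes tested, out of 32 listed, 28 (93.3%) had a log2 fold change above 0, with a median of 0.29, against 48.6% of all features. Of these, 10 had an unadjusted edgeR p under 0.05 higher in responders and 0 lower, beside the 4.2% and 4% of all features. The list was chosen with earlier results of these data known, so these shares are a description and not independent support. The survival gene Birc3 had a log2 fold change of 0.26 ± 0.080 (SE; edgeR, adjusted p = 0.580), Traf1, an adaptor of TNF receptors, 0.30 ± 0.10 (adjusted p = 0.580) and the adhesion molecule gene Icam1 0.41 ± 0.16 (adjusted p = 0.587). Vcam1, another adhesion molecule gene, was at 0.12 ± 0.093, the neutrophil chemokine gene Cxcl1 at 0.28 ± 0.23 and the prostaglandin synthase gene Ptgs2 at 0.063 ± 0.24. Leaving out 1 tumor moved these 3 by over 1.5 times, Vcam1 to 0.0606 without non-responder 2, Cxcl1 to 0.15 without responder 9 and Ptgs2 to -0.0738 without non-responder 7. With the leukocyte score as a covariate, the medians of the targets and of the ligands and receptors were 0.054 and 0.038. Birc3, Traf1 and Icam1 were then at 0.16, 0.10 and 0.027, and the ligand genes Tnf and Il1b at 0.034 and 0.21. Many of these targets are also expressed by leukocytes, whose score is given above, and the part of either was not tested.

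**Figure D5:**
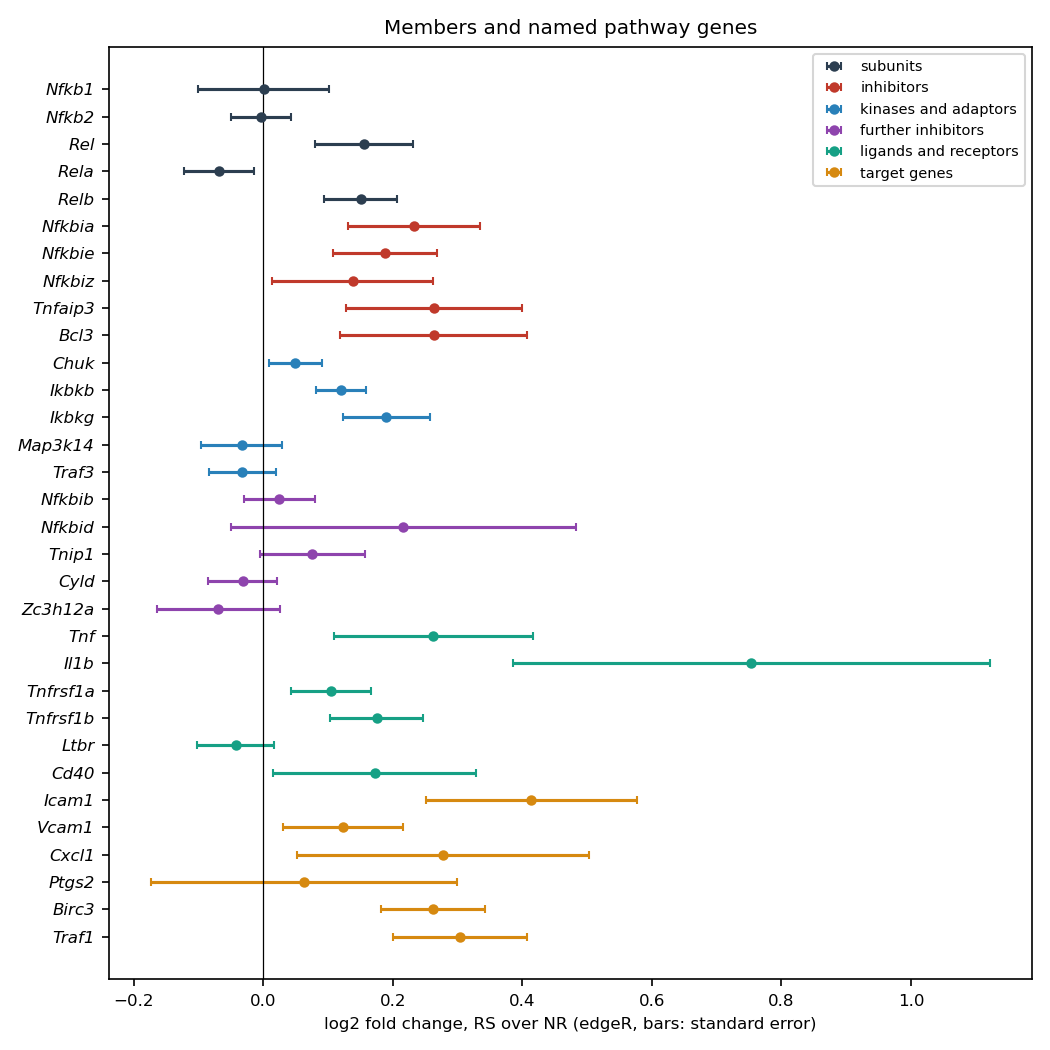
Log2 fold change of responders over non-responders (x axis) for the 10 members and 22 named genes of the pathway (y axis), with bars of 1 standard error from edgeR and colors for the lists. The 5 inhibitors lie between 0.14 and 0.26, Nfkb1 and Nfkb2 lie at 0.0004 and -0.0035, and none of the genes shown passed an adjusted p under 0.05.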

How the data were processed

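Pieces of 10 untreated WEHI 164 tumors, 5 of responders and 5 of non-responders, were sequenced (polyA RNA, Illumina paired ends). The authors estimated abundances with Kallisto (named without a version in the submitters' processing notes, with GRCm38 as the build), summed them to genes with tximport, and deposited estimated counts (expected counts, not normalized for depth or length); the annotation release is not given in the sources used here. Of 36009 rows, 9580 had no gene name (1.31% of all counts) and were kept as features, and 44 names occurred on more than 1 row and were summed. Counts were rounded to whole numbers.

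Features with a CPM above a minimum in at least 3 tumors, the filter the study gives for its time course, were tested over the whole table with edgeR 4.0.16 (quasi-likelihood test, TMM, Benjamini-Hochberg adjustment, threshold 0.05) in R 4.3.3; 15767 passed. The study names no test per gene for these groups. By gene set enrichment it reported sets of inflammatory signaling, TNF-α among them, and of interferon response as enriched in responders. That test was not repeated here. Each standard error was obtained by dividing the log2 fold change by the root of edgeR's F. The common biological coefficient of variation was 10.4%. Tests of values per tumor were exact two-sided permutation tests over 252 assignments of the labels, and correlations over 10 tumors used 100000 resamples, in Python 3.11.15 with SciPy 1.17.1. The log scale used a pseudocount of 1 CPM, and ratios one of 0.5 counts. Each tumor is a separate sample with its own number, so nothing pairs the groups. P-values measure the spread between these tumors. Alternatives were other normalizations, DESeq2 1.42.0, limma 3.58.1 (voom), other filters, a covariate for the leukocyte score, and fits that left out 1 tumor at a time. The edgeR step was tested on simulated data with changes larger than those of the members, so its power at their size was not tested. Estimated counts carry an assignment error that was not measured.

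The members, the lists and the rule for named genes (the members, 22 pathway genes, the 2 genes most like each member, and the leading or absent markers) were chosen with earlier results of these data known.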

Additional observations from a re-analysis of the deposited data

Results flagged for a closer look

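In groups of 5 tumors, a value was singled out when its gap to the nearest other tumor exceeded 0.71 of the range of its group, which chance gives in about 1 in 20 groups. Over the 52 groups examined (26 measures in responders and in non-responders), 4 values were singled out, where chance gives about 2.6. Nfkb1 was high in non-responder 1, at a log2(CPM + 1) of 7.53, with the next non-responder at 7.08. Rel was high in non-responder 3, at 4.71, with the next at 4.58. Responder 5 was low for Nfkbia, at 6.41 with the next responder at 6.84, and for Tnfaip3, at 4.66 with the next at 5.25. The last 2 come from the same tumor and from genes with an r of 0.989, and are not independent.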

How the results depend on the processing

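No paired analysis was possible because the tumor numbers differ between the groups. The adjusted p of every member stayed above 0.05 under all 18 alternatives, from 0.0959 (Nfkbia without responder 5) upward. Rel, Relb, Nfkbia, Nfkbie, Nfkbiz and Tnfaip3 kept the higher mean in responders, and Rela the lower, under all 18. Over all features 0 genes were called by edgeR (1294 at an unadjusted p under 0.05), 0 by limma-voom and 1 by DESeq2's Wald test, Col6a2, named after its values were seen. Leaving out 1 tumor gave 0 to 9 calls, the 9 without responder 5, and no member among them.

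Nfkb1 was at -0.000401 with library size alone, and at -0.037 to 0.12 when 1 tumor was left out, turning positive most without non-responder 1. Nfkb2 was at 0.000611 with DESeq2 size factors, 0.0006485 in DESeq2, 0.0018 without unnamed rows, and -0.025 to 0.030 when 1 tumor was left out. With the leukocyte score as a covariate, Nfkb1 was at -0.13, Bcl3 at -0.075, Nfkbib at -0.038 and Nfkbid at -0.38. In the same fit Tnip1 was at -0.037, Cd40 at -0.12 and Vcam1 at -0.0266. The medians were then 0.018 for kinases and adaptors, 0.038 for ligands and receptors and 0.054 for targets. Of the 22 named pathway genes, 14 moved by over 1.5 times when 1 tumor was left out. The lowest and highest values were -0.0568 (without RS 5) and 0.0226 (RS 9) for Map3k14, -0.0568 (NR 2) and 0.00361 (NR 1) for Traf3, -0.000857 (RS 11) and 0.0550 (RS 5) for Nfkbib, -0.0210 (RS 11) and 0.36 (NR 1) for Nfkbid, 0.0127 (NR 7) and 0.12 (NR 1) for Tnip1, -0.0643 (RS 12) and -0.00521 (NR 3) for Cyld, and -0.14 (NR 7) and -0.00909 (NR 2) for Zc3h12a. They were 0.13 (RS 11) and 0.38 (RS 12) for Tnf, 0.0606 (NR 7) and 0.14 (NR 6) for Tnfrsf1a, -0.0765 (NR 7) and -0.00726 (RS 9) for Ltbr, 0.0694 (NR 2) and 0.26 (NR 3) for Cd40, 0.0606 (NR 2) and 0.21 (NR 1) for Vcam1, 0.15 (RS 9) and 0.38 (RS 5) for Cxcl1, and -0.0738 (NR 7) and 0.27 (NR 2) for Ptgs2. For the log2 ratios the ranges were -0.11 to 0.042 for Nfkb2 over Nfkb1, 0.17 to 0.27 for Relb over Rela, 0.21 to 0.42 for Nfkbia over Rela and 0.24 to 0.48 for Tnfaip3 over Rela, and for the dendritic cell score -0.013 to 0.13. Member pairs past the threshold numbered 6 by Spearman rho, 3 on deviations from the group means and 2 to 8 when 1 tumor was left out. Over the union of exons the levels in CPM per kilobase were 11.7 for Nfkb1, 49.2 for Nfkb2, 26.7 for Rela, 11.5 for Relb, 24.4 for Nfkbie, 6.97 for Nfkbiz, 4.56 for Tnfaip3 and 10.7 for Bcl3. Apart from the levels, whose shift is that of the length used, the cause of these shifts was not tested. Only 5 tumors in each group, and not depth, bound the smallest p at 0.00794 for values tested by permutation.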
